A study of Mus musculus with 9 samples.

Results

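Mucin-type O-glycosylation enzymes are the glycosyltransferases and sulfotransferases that start, branch, lengthen and cap the sugar chains of mucins. The 38 genes described here were chosen by symbol, from a list of enzymes ordered by the step they act on, and all 38 had a row in the count table of 46095 gene symbols. After a filter on low counts (edgeR's filterByExpr by genotype), 34 of the 38 could be tested, and Galnt14, B3gnt8, St6galnac1 and St6galnac3 were too low. The list was made from what the enzymes do, so membership used no measured value, but the theme was picked with earlier results of these data in view.

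RNA was sequenced from intestinal epithelial cells (IECs) that EDTA had released from the mouse colon, and the question asked of the libraries is how loss of Setd2, the enzyme that trimethylates histone H3K36, changes a colon epithelium that already lacks Smad4. Both genotypes carried floxed Smad4 removed by Cre recombinase under the Villin promoter, which is active throughout the intestinal epithelium. The Smad4 Vil-KO group (libraries S-1 to S-4, n = 4) kept Setd2, while the Smad4 Vil-KO;Setd2 Vil-KO group (libraries DDKO-1 to DDKO-5, n = 5, called DDKO hereafter) had floxed Setd2 deleted as well. All the mice had a C57BL/6j background, received azoxymethane (AOM, 10 mg/kg), a colon carcinogen, at 8 weeks of age followed by 2% dextran sulphate sodium (DSS), which injures the epithelium, and were sampled at 10 days of AOM/DSS. No group kept Smad4, so that the effect of Setd2 loss is measured only on the Smad4-deleted background. The labels do not say whether a library held 1 mouse or a pool, and p-values measure the spread between these libraries.

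In mucin-type O-glycosylation a GalNAc residue is first linked to serine or threonine by a polypeptide GalNAc-transferase of the GALNT family. The core 1 synthase C1GALT1 or the core 3 synthase B3GNT6 then extends that residue, and GCNT enzymes add a GlcNAc branch that makes core 2 or core 4 structures. The branches are lengthened by further GlcNAc and galactose and ended by sialic acid, fucose, GalNAc or sulfate. In the colon these chains make up most of the mass of the goblet cell mucin MUC2, whose gel separates bacteria from the epithelium, and core 3 structures are found on colonic mucin.

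Total counts ran from 12487129 to 17120202 per library, and each count equalled 0.0594 to 0.0794 CPM, the level scale used for single genes below, in which counts are divided by the TMM-normalized library total. Setd2 itself read 118, 120, 99.2 and 114 CPM in S-1 to S-4 and 57.8, 87.1, 55.7, 53.9 and 76.1 CPM in DDKO-1 to DDKO-5, with a log2 fold change of -0.77 ± 0.14 (SE, edgeR's quasi-likelihood test, adjusted p = 0.00756) and no overlap between the genotypes. Smad4, deleted in both, read 64.2 ± 19.0 CPM in Smad4 Vil-KO and 70.3 ± 34.4 CPM in DDKO (mean ± SD, n = 4 and 5), and counts per gene do not show which exons were left, so this level does not check the deletion. Y-linked genes summed to 3857 to 4907 counts in DDKO-1, DDKO-2 and DDKO-5 and to at most 28 in the other 6 libraries, so that libraries with Y-linked counts were all DDKO. The X-linked gene Xist had 5 or 6 counts in DDKO-1, DDKO-2 and DDKO-5 and 17833 to 26617 counts in the other 6 libraries. DDKO-1 and DDKO-2 stood apart from the other DDKO libraries over all genes, with a chi-square per gene of 42.1 to 63.1 against DDKO-3 to DDKO-5, compared with 18.6 between DDKO-1 and DDKO-2, 9.22 to 26.9 among DDKO-3 to DDKO-5 and 10.8 to 38.7 among the Smad4 Vil-KO libraries. The epithelial markers Epcam, Krt8, Krt18, Krt19, Cdh1, Vil1 and Cldn7 were all expressed and summed to 12081 to 13850 CPM in Smad4 Vil-KO and 11285 to 13262 CPM in DDKO.

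Of the 34 enzymes tested, 11 differed between the genotypes at an adjusted p under 0.05 (32.4%), against 13.3% of all 14593 genes tested. Leaving out 1 library moved the count to 3 without S-3 (8.82%, against 5.69% of the genes tested there). The count was 4 without S-4 (11.8%, against 7.93%) or DDKO-4 (11.8%, against 8.86%) and 5 without S-1 (14.7%, against 6.82%). It was 6 without S-2 (17.6%, against 8.08%) or DDKO-2 (17.6%, against 11%) and 7 without DDKO-3 (20.6%, against 11.1%). Without DDKO-1 it was 8 (23.5%, against 11%), and without DDKO-5 it was 13 (38.2%, against 18.6%). With all libraries Galnt6, C1galt1c1 and Gcnt4 were higher in DDKO, 8.82% of the members against 6.76% of all genes. B3gnt6, B3gnt7, B4galnt3, St3gal1, St3gal3, St6galnac4, St6galnac6 and Fut2 were lower, 23.5% of the members against 6.54% of all genes. The median log2 fold change was -0.15 over the 34 members and -0.00 over all genes tested, with 12 members fitted above 0 and 22 below. In 3 members (Galnt6, Gcnt4, Gal3st2) all DDKO libraries exceeded all Smad4 Vil-KO libraries, as in 8.34% of all genes, and in 3 (B3gnt6, St6galnac4, St6galnac6) every DDKO library lay below, as in 8.87%. In the libraries without Y-linked counts (4 Smad4 Vil-KO, 2 DDKO) 12 of 35 members tested were called (34.3%), among them all 11, against 19.4% of the genes tested there. With a term for Y-linked counts, fitted over all 9 libraries, 7 of 34 were called (20.6%), all of them among the 11, against 8.81% of all genes. No Smad4 Vil-KO library held such counts, so the genotype difference in that fit again rested on DDKO-3 and DDKO-4. Without DDKO-1 and DDKO-2, an alternative added after the data were seen, 7 of 34 were called (20.6%), all of them among the 11, against 14.7% of the genes tested there, and B3gnt7, B4galnt3, St3gal3 and Fut2 lost the call.

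**Figure D1:**
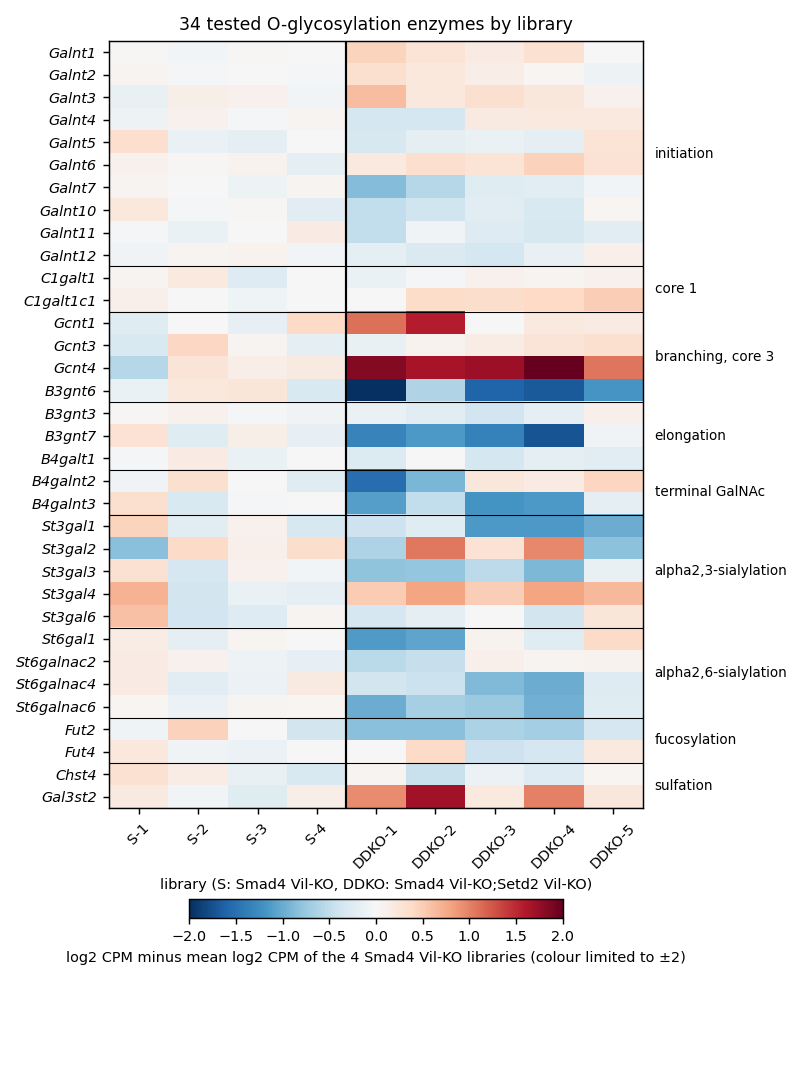
Level of each of the 34 tested enzymes in each library, as log2 CPM minus the mean log2 CPM of the 4 Smad4 Vil-KO libraries, with red higher and blue lower and rows ordered by step. Gcnt4 was red in all 5 DDKO libraries and B3gnt6 blue in all 5, while Gcnt1 and B4galnt2 departed from the Smad4 Vil-KO level mainly in DDKO-1 and DDKO-2.

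**Figure D2:**
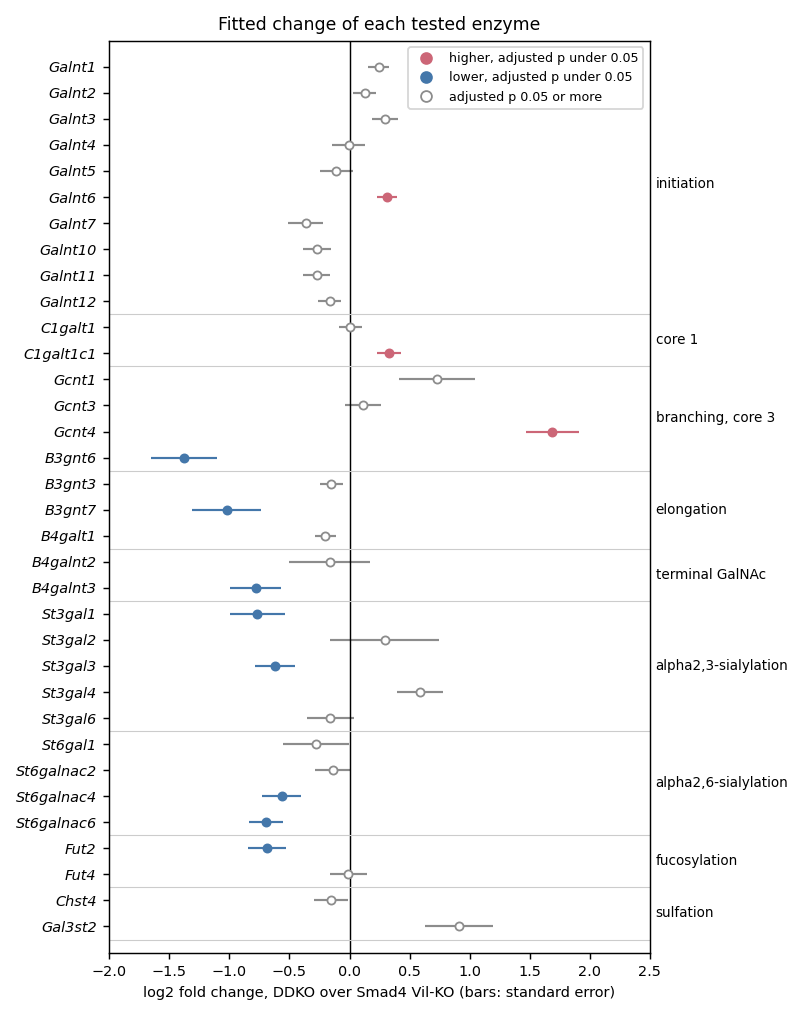
Fitted log2 fold change (DDKO over Smad4 Vil-KO, horizontal axis) of each tested enzyme with its standard error as a bar, filled where the adjusted p was under 0.05. The 3 filled points above 0 are Galnt6, C1galt1c1 and Gcnt4, and the 8 filled points below 0 run from B3gnt6 (-1.38) to St6galnac4 (-0.56).

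At the initiating step, 1 of the 10 GALNT genes tested passed the test (10%, against 13.3% of all genes tested). Galnt6, an initiating transferase of the colon epithelium, read 222, 213, 218 and 185 CPM in S-1 to S-4 and 239, 263, 254, 287 and 256 CPM in DDKO-1 to DDKO-5. Its level was thus higher in each of the 5 DDKO libraries, with S-1 and DDKO-1 nearest to each other. The difference was small, 1.24-fold (log2 fold change 0.31 ± 0.08, SE, adjusted p = 0.0338). It was no longer called without S-1, S-2, S-3, S-4, DDKO-2 or DDKO-4 (adjusted p = 0.0537 to 0.0953) or with no filter on low counts (0.0786). The call was also lost with the replicate number as a block (log2 fold change 0.31, adjusted p = 0.112) and with a term for Y-linked counts (0.37, adjusted p = 0.0561). Over all 18 alternatives the adjusted p ran from 0.00829 to 0.112. An antisense gene, Galnt6os, covers 11.4% of the exon bases of Galnt6, and whether the counting used strand is not stated.

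Among the other initiating transferases, Galnt1 was at 128 to 135 CPM in Smad4 Vil-KO and 133 to 180 CPM in DDKO (log2 fold change 0.24), and Galnt3 at 113 to 136 and 133 to 192 CPM (0.30). Galnt7 and Galnt10, which prefer peptides that already carry GalNAc, were fitted lower, at -0.36 and -0.27. Galnt7 read 385, 371, 345 and 387 CPM in S-1 to S-4 and 204, 250, 315, 320 and 357 CPM in DDKO-1 to DDKO-5. Its 2 lowest libraries were DDKO-1 and DDKO-2, and only DDKO-5 reached the Smad4 Vil-KO range. None of these 4 genes passed the test with all libraries (adjusted p = 0.0927, 0.0977, 0.118 and 0.146 for Galnt1, Galnt3, Galnt7 and Galnt10). Without DDKO-5, which was the DDKO library nearest to Smad4 Vil-KO in Galnt1, Galnt3, Galnt7 and Galnt10, the adjusted p was 0.0246 for Galnt1, 0.044 for Galnt3 and 0.0411 for Galnt10, while over the 18 alternatives it reached 0.235, 0.27 and 0.345.

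The remaining GALNT genes did not pass the test either. Galnt2 (38.9 and 42.5 CPM on average in Smad4 Vil-KO and DDKO), Galnt4 (309 and 308), Galnt5 (66.8 and 61.9), Galnt11 (18.7 and 15.4) and Galnt12 (168 and 150) had log2 fold changes between -0.27 and 0.13 and adjusted p-values from 0.131 to 0.982. Most exon bases of Galnt2 are shared with the annotated locus Gm20388 on the same strand, so that its counts are uncertain. Galnt14 had 2 counts in S-1 and 1 count each in DDKO-3 and DDKO-4, and none in the other 6 libraries, where a count of 0 allows up to 0.178 to 0.238 CPM (3 counts, counting error only).

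Taken per kilobase of exon, the summed level of the initiating step was shared by Galnt12 (18.6% to 20.8% in Smad4 Vil-KO and 15.7% to 19.9% in DDKO), Galnt7 (19.1% ± 1.14 and 15.0% ± 2.21, mean ± SD), Galnt4 (16.4% ± 1.03 and 16.5% ± 2.21) and Galnt6 (14.6% ± 0.961 and 18.4% ± 1.39) ahead of the rest. The share of Galnt6 was 13.2% to 15.3% in Smad4 Vil-KO and 16.6% to 20.2% in DDKO, with no overlap. For Galnt7 the shares did not overlap in the opposite direction, at 17.7% to 20.4% and 11.5% to 17.1%. These shares are a description, with no test.

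At the core 1 step, the chaperone passed the test and the synthase did not. C1galt1, the synthase, read 168 ± 22.0 CPM in Smad4 Vil-KO and 169 ± 10.9 CPM in DDKO, a log2 fold change of 0.01 ± 0.10 (adjusted p = 0.976). C1galt1c1 encodes Cosmc, the chaperone without which the synthase is degraded, and read 82.1, 75.9, 71.9 and 77.1 CPM in S-1 to S-4 against 76.8, 99.1, 98.1, 101 and 108 CPM in DDKO-1 to DDKO-5. Of the DDKO libraries, 4 lay above every Smad4 Vil-KO library and DDKO-1 lay within their range. The fitted rise was 1.26-fold (log2 fold change 0.33 ± 0.10, adjusted p = 0.0493). That call was lost without any 1 library other than DDKO-1, namely S-1, S-2, S-3, S-4, DDKO-2, DDKO-3, DDKO-4 or DDKO-5 (adjusted p = 0.0626 to 0.138), with a range of 0.00764 to 0.156 over the 18 alternatives. C1galt1c1 lies on chromosome X, and in the libraries without Y-linked counts, where DDKO-3 and DDKO-4 remain, its log2 fold change was 0.38 (adjusted p = 0.0125). With a term for Y-linked counts, where the genotype difference rests on the same DDKO libraries, it was 0.37 and not called (adjusted p = 0.0934). The call was also lost with limma-voom (0.0563), with no filter on low counts (0.0853) and with the replicate block (0.156).

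The branching step and the core 3 step held the largest fold changes of the list in either direction. Gcnt4, a core 2 GlcNAc-transferase, rose 3.22-fold, and B3gnt6, the core 3 synthase, fell to 38.5% of its level. Both were called in each of the 18 alternatives.

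Gcnt4 read 9.69, 17.4, 15.8 and 16.4 CPM in S-1 to S-4 and 51.7, 45.3, 47.5, 63.9 and 30.5 CPM in DDKO-1 to DDKO-5. Every DDKO library exceeded every Smad4 Vil-KO library, with DDKO-5 the lowest of its group and DDKO-4 the highest. The log2 fold change was 1.69 ± 0.22 (SE, edgeR's quasi-likelihood test, adjusted p = 0.00129), and ran from 1.54 to 1.82 when single libraries were omitted. Gcnt4 was among the low members before the change, at 2.91 CPM per kilobase of exon in Smad4 Vil-KO and 9.39 in DDKO, which moved it from rank 31 to rank 27 of the 38. The opposite-strand locus Gm48597 covers 10.5% of its exon bases.

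B3gnt6 read 22.2, 28.1, 28.7 and 19.7 CPM in S-1 to S-4 and 5.06, 16.1, 8.04, 7.63 and 10.8 CPM in DDKO-1 to DDKO-5. The highest DDKO library, DDKO-2, stayed below the lowest Smad4 Vil-KO library, S-4. The gene fell by 1.38 on the log2 scale (SE 0.28, adjusted p = 0.0104), and omitting single libraries gave log2 fold changes of -1.65 to -1.21.

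The other 2 branching enzymes did not pass the test. Gcnt1, the widely expressed core 2 enzyme, read 39.4, 46.6, 41.5 and 60.9 CPM in S-1 to S-4 and 99.4, 139, 46.1, 53.4 and 52.1 CPM in DDKO-1 to DDKO-5. DDKO-1 and DDKO-2 stood above all other libraries and DDKO-3 to DDKO-5 lay within the Smad4 Vil-KO range, so that the fitted rise (log2 fold change 0.73 ± 0.32, adjusted p = 0.145) came with a DDKO SD of 40.0 CPM. In the libraries without Y-linked counts the log2 fold change of Gcnt1 was 0.09. Gcnt3, the mucin-type enzyme that makes both core 2 and core 4, was the most abundant branching enzyme per kilobase (49.4 CPM per kilobase in Smad4 Vil-KO, 53.4 in DDKO) and read 212 ± 48.5 and 229 ± 28.7 CPM (fitted difference 0.11 on the log2 scale, adjusted p = 0.644).

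**Figure D3:**
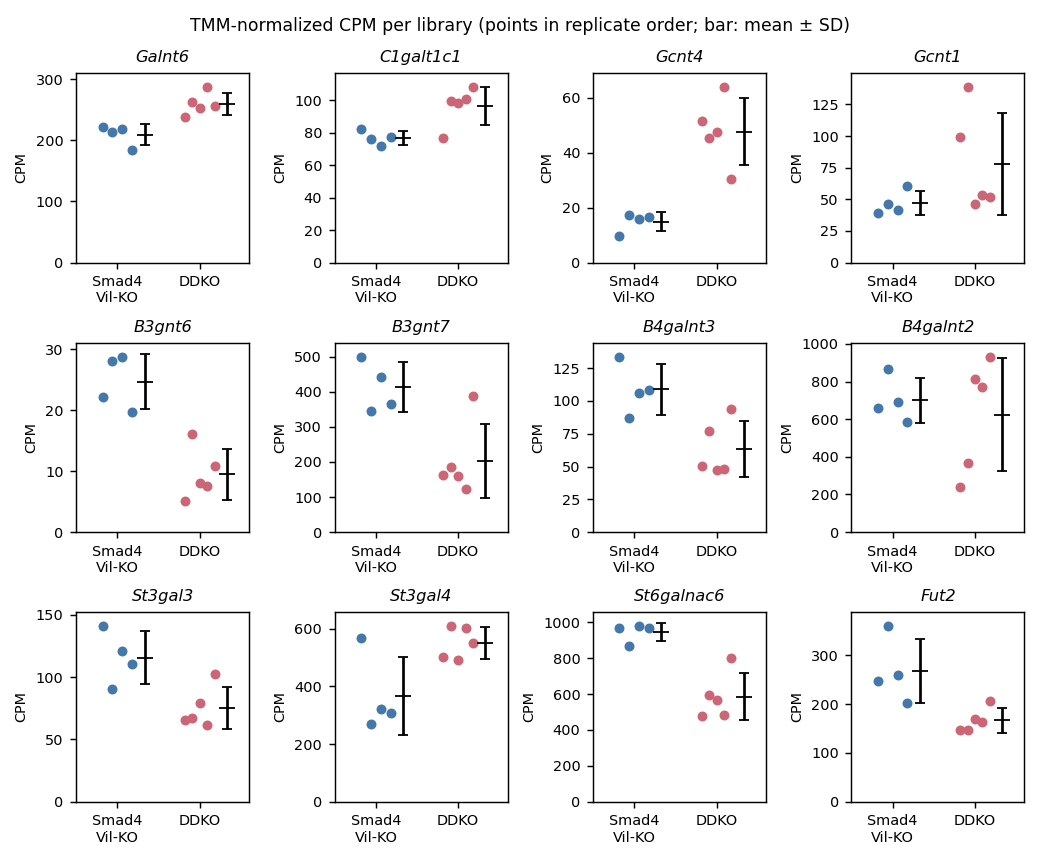
TMM-normalized CPM (vertical axes, from 0) of 12 enzymes in each library, Smad4 Vil-KO in blue and DDKO in red in replicate order, with the mean ± SD as a bar. Gcnt4 lies at 9.69 to 17.4 CPM against 30.5 to 63.9 CPM and St6galnac6 at 869 to 978 against 476 to 799 CPM, both without overlap, while Gcnt1 and B4galnt2 split the DDKO libraries.

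Because B3gnt6 and C1galt1 act on the same GalNAc residue, their ratio was taken within each library, which frees it of library scaling. The log2 ratio of B3gnt6 to C1galt1 counts (0.5 added to each) was -2.96, -2.77, -2.27 and -3.09 in S-1 to S-4 and -4.90, -3.35, -4.45, -4.50 and -4.04 in DDKO-1 to DDKO-5. The genotypes did not overlap, and the mean moved from -2.77 ± 0.36 to -4.25 ± 0.59 (SD), a difference of -1.47. The exact permutation test (126 arrangements of the genotype labels) gave p = 0.0159 (two-sided), the smallest p it can give, and 0.0476 after Benjamini-Hochberg adjustment over the 3 ratios computed. The ratio of Gcnt3 to Gcnt1, the mucin-type against the widely expressed branching enzyme, was 2.17 ± 0.43 in Smad4 Vil-KO and 1.69 ± 0.83 in DDKO (difference -0.48, exact permutation p = 0.349, adjusted 0.524), with DDKO-1 and DDKO-2 at 0.91 and 0.66 and the other 3 DDKO libraries at 2.23 to 2.32. The ratio of St6galnac1 to C1galt1 rested on at most 4 St6galnac1 counts per library and differed by 0.21 (exact permutation p = 0.857), so that no direction can be read from it.

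**Figure D4:**
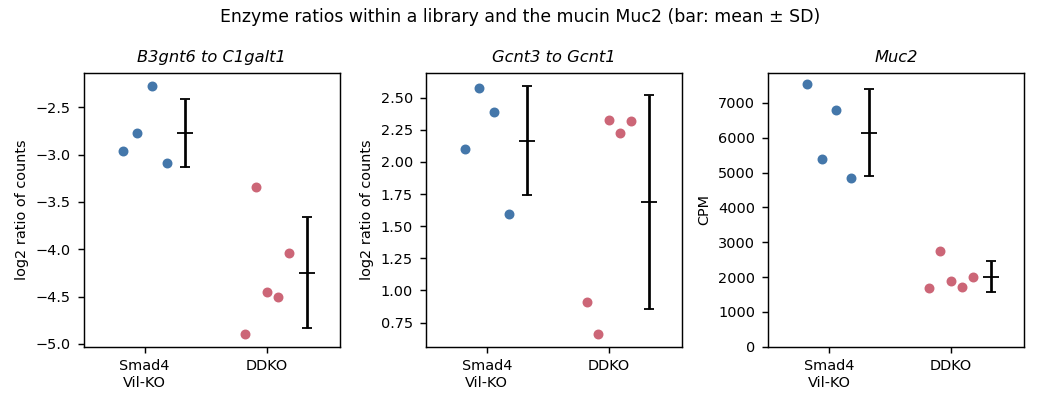
Log2 ratios of counts within each library for B3gnt6 to C1galt1 and Gcnt3 to Gcnt1, and the CPM of the mucin Muc2, with 4 Smad4 Vil-KO libraries in blue, 5 DDKO libraries in red and mean ± SD as bars. The B3gnt6 to C1galt1 ratio and Muc2 show no overlap between the genotypes, and the Gcnt3 to Gcnt1 ratio is low in DDKO-1 and DDKO-2 alone.

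Of the 4 elongating enzymes 3 were tested, and B3gnt7 alone passed the test (33.3%, against 6.54% of all genes called lower). B3gnt7 is a GlcNAc-transferase of poly-N-acetyllactosamine and keratan sulfate chains, and read 499, 346, 443 and 364 CPM in S-1 to S-4 and 162, 185, 159, 123 and 388 CPM in DDKO-1 to DDKO-5. In DDKO-1 to DDKO-4 it lay below every Smad4 Vil-KO library, while DDKO-5 lay inside their range. The gene fell by 1.02 on the log2 scale (SE 0.29, adjusted p = 0.0402), to 49.3%. The call was lost on leaving out any 1 of S-1, S-2, S-3, S-4, DDKO-1, DDKO-2, DDKO-3 and DDKO-4 (adjusted p = 0.0619 to 0.106, 0.000627 to 0.106 over the 18 alternatives), and without DDKO-5 the log2 fold change was -1.38. Without both DDKO-1 and DDKO-2 it was -0.88 (adjusted p = 0.107). The opposite-strand locus Gm28626 covers 12.6% of its exon bases.

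B3gnt3, which extends core 1 chains, was at 339 ± 16.6 CPM in Smad4 Vil-KO and 306 ± 38.5 CPM in DDKO (fitted difference -0.15 on the log2 scale, adjusted p = 0.322). B4galt1, the main beta1,4-galactosyltransferase, was at 193 ± 16.3 and 167 ± 15.5 CPM (-0.20, adjusted p = 0.151). B3gnt8 had at most 13 counts in a library and was not tested.

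Of the 2 enzymes that add terminal GalNAc, 1 passed the test (50%, against 6.54% of all genes called lower). B4galnt3, which makes LacdiNAc, read 134, 87.0, 106 and 108 CPM in S-1 to S-4 and 50.2, 76.8, 47.1, 48.4 and 94.1 CPM in DDKO-1 to DDKO-5. All but DDKO-5 were below every Smad4 Vil-KO library. B4galnt3 fell by 0.78 on the log2 scale (SE 0.21, adjusted p = 0.0365). Its call was lost without S-1, S-3, S-4, DDKO-1, DDKO-3 or DDKO-4 (adjusted p = 0.0674 to 0.106) and kept in the other 12 of the 18 alternatives, down to an adjusted p of 0.0013. Without both DDKO-1 and DDKO-2 the log2 fold change was again -0.78 (adjusted p = 0.0541).

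B4galnt2, the Sda synthase of the colon, had the highest mean level per kilobase of all 38 members in both genotypes, at 407 and 363 CPM per kilobase, although in DDKO-1 St3gal4 was above it. It read 659, 866, 691 and 585 CPM in S-1 to S-4 and 240, 369, 811, 773 and 931 CPM in DDKO-1 to DDKO-5. The DDKO libraries fell on both sides of the Smad4 Vil-KO values, with DDKO-1 and DDKO-2 below and the other 3 within or above. The fitted difference was -0.16 ± 0.34 on the log2 scale (adjusted p = 0.777), while it was 0.18 in the libraries without Y-linked counts and 0.27 without DDKO-1 and DDKO-2 (adjusted p = 0.192).

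**Figure D5:**
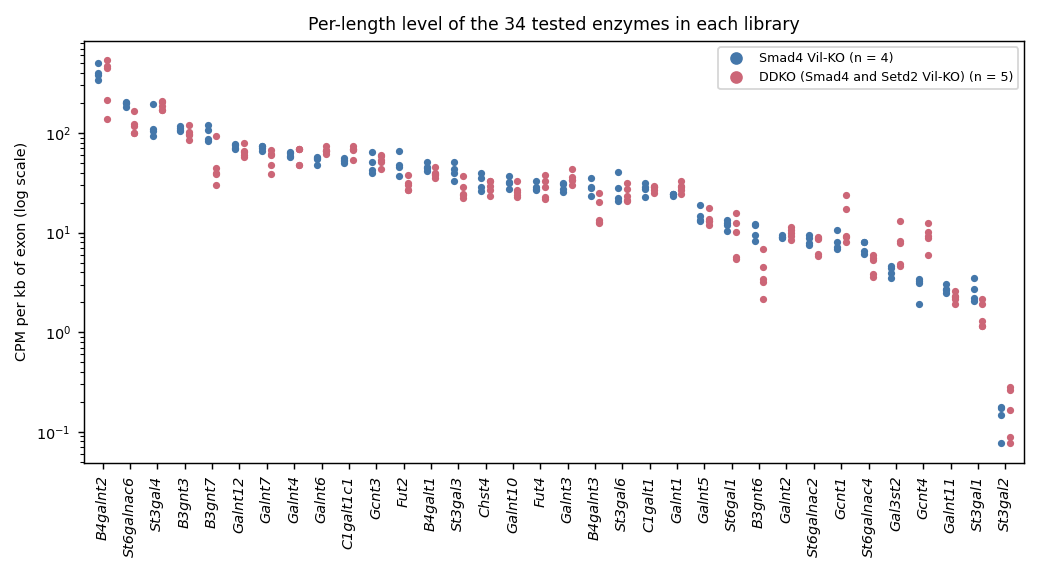
CPM per kilobase of exon (vertical axis, log scale) of the 34 tested enzymes in each library, ordered by the Smad4 Vil-KO mean, with Smad4 Vil-KO in blue and DDKO in red. Levels span B4galnt2 (means of 407 and 363) to St3gal2 (0.143 and 0.176), with B3gnt7 (rank 5 to rank 11) and B3gnt6 (rank 25 to rank 31) lower in the DDKO order.

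Among the 5 alpha2,3-sialyltransferases, St3gal1 and St3gal3 fell (40%, against 6.54% of all genes called lower). St3gal1, which caps core 1 with sialic acid, was a low member at 23.7, 15.1, 18.7 and 14.1 CPM in S-1 to S-4 and 13.1, 14.7, 7.90, 7.86 and 8.84 CPM in DDKO-1 to DDKO-5. The 3 lowest libraries were DDKO-3 to DDKO-5, and the highest DDKO library, DDKO-2, lay between S-4 and S-2. Its log2 fold change was -0.77 ± 0.23 (adjusted p = 0.0492), not called without S-1, S-2, S-3, S-4, DDKO-3, DDKO-4 or DDKO-5 (adjusted p = 0.0568 to 0.152, and 0.00735 to 0.152 over the 18 alternatives). The call of St3gal1 was also lost with DESeq2 size factors (0.0527), with library size alone (0.0736), with a minimum of 10 counts (0.0524) and with the replicate block (0.0616), while without DDKO-1 and DDKO-2 the log2 fold change was -1.12 (adjusted p = 0.00606).

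St3gal3, which acts on N-acetyllactosamine ends, read 141, 90.4, 121 and 111 CPM in S-1 to S-4 and 65.4, 67.0, 79.4, 61.3 and 103 CPM in DDKO-1 to DDKO-5. Again DDKO-5 was the single DDKO library inside the Smad4 Vil-KO range. The log2 fold change was -0.62 ± 0.16 (adjusted p = 0.0321). The call was lost without S-1, S-3, S-4, DDKO-1, DDKO-2 or DDKO-4 (adjusted p = 0.0613 to 0.0981, and 0.00667 to 0.0981 over the 18 alternatives). It was also lost with a term for Y-linked counts (log2 fold change -0.72, adjusted p = 0.0731) and without both DDKO-1 and DDKO-2 (-0.51, adjusted p = 0.0919).

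St3gal4, the most abundant alpha2,3-sialyltransferase per kilobase of exon, read 567, 271, 322 and 307 CPM in S-1 to S-4 and 500, 608, 491, 604 and 550 CPM in DDKO-1 to DDKO-5. The DDKO libraries lay close together above S-2, S-3 and S-4, and S-1 lay among them. With all libraries the difference was 0.59 ± 0.20 on the log2 scale and not called (adjusted p = 0.0714). It was called with all libraries by DESeq2 (adjusted p = 0.0286), limma-voom (0.0418) and edgeR with library size alone (0.0481), and without S-1 (log2 fold change 0.88, adjusted p = 0.00281), with a range of 0.00281 to 0.184 over the 18 alternatives. S-1 was also the library with the highest summed goblet cell markers (32020 CPM, against 12635 to 16183 CPM in S-2 to S-4), and the part of this in St3gal4 was not tested.

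St3gal6 was at 171 ± 54.7 and 153 ± 28.7 CPM (fitted difference -0.16 on the log2 scale, adjusted p = 0.611), with S-1 again the highest library at 248 CPM. St3gal2 was barely expressed, at 5 to 20 counts per library.

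All 4 tested alpha2,6-sialyltransferases were fitted lower, and St6galnac4 and St6galnac6 passed the test (50%, against 6.54% of all genes called lower). Both showed no overlap between the genotypes, as did 8.87% of all genes in that direction. St6galnac6, which acts on glycolipids and on sialylated Lewis-type chains, was the most abundant sialyltransferase per kilobase in Smad4 Vil-KO. It read 967, 869, 978 and 970 CPM in S-1 to S-4 and 476, 598, 566, 483 and 799 CPM in DDKO-1 to DDKO-5. Every DDKO library was lower, and DDKO-5 was the closest to the Smad4 Vil-KO range. The gene fell by 0.70 on the log2 scale (SE 0.14, adjusted p = 0.0122), and it was called in all 18 alternatives (adjusted p = 0.000175 to 0.0436).

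St6galnac4, which adds a second sialic acid to sialylated core 1, read 51.8, 39.4, 42.7 and 52.3 CPM in S-1 to S-4 and 35.8, 34.4, 25.2, 23.2 and 38.6 CPM in DDKO-1 to DDKO-5. The groups were separated by a small gap, between DDKO-5 and S-2. The log2 fold change was -0.56 ± 0.16 (adjusted p = 0.0425), and the call was lost without S-1, S-2, S-3, S-4, DDKO-2, DDKO-3 or DDKO-4 (adjusted p = 0.0505 to 0.116, and 0.00236 to 0.116 over the 18 alternatives) and with library size alone (0.0655). The 2 genes are tandem neighbours on chromosome 2: in RefSeq (GRCm38.p6, the assembly also called mm10) St6galnac4 spans chr2:32587078-32599696 and St6galnac6 chr2:32599709-32620809, both on the plus strand, with 12 bases between them. Reads across that junction could be assigned to either gene.

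Taken per kilobase, St6galnac6 made up 47.3% ± 5.81 of the summed sialyltransferase level in Smad4 Vil-KO and 31.2% ± 3.53 in DDKO, and St3gal4 29.1% ± 5.46 and 49.2% ± 5.57 (SD, n = 4 and 5). Neither share overlapped between the genotypes, with St6galnac6 at 38.6% to 51.0% and 26.9% to 36.5%, and St3gal4 at 26.0% to 37.3% and 41.4% to 55.3%. St3gal4 was the larger of the 2 in every DDKO library and St6galnac6 the larger in every Smad4 Vil-KO library, a description with no test.

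St6gal1, which caps N-glycans and lactosamine ends, read 65.3, 51.2, 60.7 and 58.3 CPM in S-1 to S-4 and 26.9, 28.2, 61.5, 49.4 and 76.6 CPM in DDKO-1 to DDKO-5. As for B4galnt2, DDKO-1 and DDKO-2 were the lowest of the 9 libraries and the other 3 DDKO libraries spread around the Smad4 Vil-KO values (log2 fold change -0.28, adjusted p = 0.522). St6galnac2, which sialylates the GalNAc of core 1, was at 59.5 ± 6.42 and 54.1 ± 11.1 CPM (-0.14, adjusted p = 0.557). St6galnac1, the sialyl-Tn synthase, had 4 counts in S-1, 1 in DDKO-2, 3 in DDKO-3 and none in the other 6 libraries, and St6galnac3 had at most 9 counts in a library.

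At the fucosylation step Fut2 fell, 1 of the 2 genes tested (50%, against 6.54% of all genes called lower). FUT2 adds the alpha1,2-fucose that forms H antigens on mucins, and the gene read 248, 360, 260 and 203 CPM in S-1 to S-4 and 147, 146, 170, 164 and 207 CPM in DDKO-1 to DDKO-5. Only DDKO-5 exceeded the lowest Smad4 Vil-KO library, S-4. Fut2 fell by 0.68 on the log2 scale (SE 0.16, adjusted p = 0.0192), to 62.2%. Leaving out S-3 was the single omission that ended the call (adjusted p = 0.0532). Over the 18 alternatives the adjusted p ran from 0.0012 to 0.0805, the highest with a term for Y-linked counts (log2 fold change -0.68). Fut2 was also not called without both DDKO-1 and DDKO-2 (log2 fold change -0.57, adjusted p = 0.0531). Fut4, an alpha1,3-fucosyltransferase of Lewis-type chains, was at 118 ± 12.4 and 117 ± 27.3 CPM (fitted difference -0.01 on the log2 scale, adjusted p = 0.978). In the libraries without Y-linked counts its log2 fold change was -0.38 (adjusted p = 0.0349, with 0.0349 to 0.998 over the 18 alternatives). The higher DDKO values of Fut4, 118, 153 and 134 CPM, were those of DDKO-1, DDKO-2 and DDKO-5.

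Neither sulfotransferase passed the test. Gal3st2, which sulfates galactose at the third carbon, read 14.2, 12, 10.6 and 13.6 CPM in S-1 to S-4 and 24.1, 40.2, 14.3, 25.2 and 14.7 CPM in DDKO-1 to DDKO-5. All 5 DDKO libraries lay above the Smad4 Vil-KO values, though DDKO-3 and DDKO-5 only just. The log2 fold change was 0.91 ± 0.28 and the adjusted p 0.0554, and the gene was called by DESeq2 (0.012), with no filter on low counts (0.0394), with the replicate block (0.0335), without DDKO-3 (0.0339) and without DDKO-5 (0.0224), with a range of 0.012 to 0.266 over the 18 alternatives. Gal3st2 has near-identical copies in the mouse genome (Gal3st2b, Gal3st2c) for which the table held no row, so that its counts are uncertain. Chst4, a GlcNAc 6-O-sulfotransferase, was at 73.7 ± 13.9 and 66.3 ± 9.37 CPM (fitted difference -0.15 on the log2 scale, adjusted p = 0.494).

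Upstream sequence was taken for the members from RefSeq (GRCm38.p6), as the 250 bases before each annotated start site, and 26 of the 38 members had an entry, with 34 start sites. The 4 windows printed here belong to Gcnt4, the member that rose most, B3gnt7, the most abundant member that fell by more than 1 on the log2 scale, and St6galnac4, the first gene of the tandem pair that was lower. Capitals mark GGGCGG (a GC box), TTTAT (a core of Cdx homeodomain sites) and CAGAC (a Smad box), or their reverse complements, and none of the 3 motifs is contained in another. The windows run 5′ to 3′ on the strand of the gene, the plus strand in each case: Gcnt4 upstream start at chr13:96924094-96924343, Gcnt4 downstream start at chr13:96924463-96924712, B3gnt7 at chr1:86302971-86303220 and St6galnac4 at chr2:32586828-32587077.
Gcnt4 upstream start: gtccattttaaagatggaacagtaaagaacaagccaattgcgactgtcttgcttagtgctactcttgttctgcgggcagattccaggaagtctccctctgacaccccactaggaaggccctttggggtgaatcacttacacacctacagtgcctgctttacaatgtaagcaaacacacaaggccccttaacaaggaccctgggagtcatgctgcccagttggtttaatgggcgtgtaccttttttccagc
Gcnt4 downstream start: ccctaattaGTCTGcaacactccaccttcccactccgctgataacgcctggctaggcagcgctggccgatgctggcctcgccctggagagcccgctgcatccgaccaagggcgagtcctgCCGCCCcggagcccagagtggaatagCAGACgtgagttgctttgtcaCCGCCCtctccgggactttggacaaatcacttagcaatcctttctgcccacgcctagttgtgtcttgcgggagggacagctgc
B3gnt7: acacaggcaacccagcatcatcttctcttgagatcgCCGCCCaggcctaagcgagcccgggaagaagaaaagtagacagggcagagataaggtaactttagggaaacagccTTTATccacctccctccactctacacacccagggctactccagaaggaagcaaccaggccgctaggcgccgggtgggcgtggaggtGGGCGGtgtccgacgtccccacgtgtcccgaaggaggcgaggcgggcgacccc
St6galnac4: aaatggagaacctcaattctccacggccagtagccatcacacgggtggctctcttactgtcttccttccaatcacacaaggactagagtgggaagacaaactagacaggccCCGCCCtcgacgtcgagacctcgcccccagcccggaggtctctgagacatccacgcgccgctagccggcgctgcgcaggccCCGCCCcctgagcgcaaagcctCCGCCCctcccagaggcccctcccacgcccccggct

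The upstream Gcnt4 window held none of the 3 motifs and 48.8% GC, while the downstream one held 2 GC boxes, 2 Smad boxes and 61.2% GC. The B3gnt7 window held 2 GC boxes and 1 TTTAT, and the St6galnac4 window 3 GC boxes. Over the 34 member windows, GGGCGG occurred in 52.9% against 32.7% of all 32851 windows of the same length, TTTAT in 26.5% against 37.3%, and CAGAC in 32.4% against 42.2%. Some windows overlap untranslated exon bases annotated for the same gene, all 250 in C1galt1, Fut4 and Galnt5 and 24 in the downstream Gcnt4 window. The St6galnac6 window overlaps such bases of St6galnac4. These matches are letters in a window and were not tested for binding.

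Mucin genes encode the proteins that the enzymes modify. Of 7 tested mucin genes, Muc1, Muc2 and Muc13 fell (42.9%, against 6.54% of all genes called lower) and no mucin rose, by edgeR's test, at an unadjusted p under 0.05 or by DESeq2. Muc2, the gel-forming mucin of goblet cells, read 7553, 5383, 6801 and 4835 CPM in S-1 to S-4 and 1672, 2758, 1873, 1701 and 2011 CPM in DDKO-1 to DDKO-5, with no overlap. It fell by 1.62 on the log2 scale (SE 0.18, adjusted p = 0.000542). The transmembrane mucin Muc1 fell from 31.5 to 5.52 CPM (log2 fold change -2.51, adjusted p = 0.000541) and Muc13 from 2796 to 2161 CPM (-0.37, adjusted p = 0.0404).

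Enzymes and carriers that supply the sugar donors were described from a list of 29 genes, of which 25 were tested. Lower in DDKO were Galk2, a GalNAc kinase (51.2 to 34.3 CPM, log2 fold change -0.58, adjusted p = 0.0025), Gne, the first enzyme of sialic acid synthesis (671 to 403 CPM, -0.73, adjusted p = 0.00546), Fuk, the fucose kinase (49.3 to 38.3 CPM, -0.37, adjusted p = 0.0215), and Slc35a2, the UDP-galactose carrier (154 to 119 CPM, -0.37, adjusted p = 0.033). In each of these 4 every DDKO library was below every Smad4 Vil-KO library. No gene of the list was called higher by edgeR's test or by DESeq2. At an unadjusted p under 0.05, 2 were higher and 10 lower, and the share of all genes at that threshold is not given here. The 4 called make 16% of the genes tested from the list, against 6.54% of all genes called lower, and all DDKO libraries were below all Smad4 Vil-KO libraries in 8.87% of all genes.

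Glycosyltransferases and sulfotransferases outside the members that can act on the same or related chains numbered 43 in the table, with 23 tested and 4 called (17.4%, against 13.3% of all genes tested). Gcnt2, the I-branching enzyme, rose from 25.7 to 38.3 CPM (log2 fold change 0.57, adjusted p = 0.00602). B3galt5, which makes type 1 chains, fell from 954 to 642 CPM (-0.57, adjusted p = 0.0225), Abo, the blood group transferase, from 17.5 to 6.13 CPM (-1.52, adjusted p = 0.0213), and St8sia5, an alpha2,8-sialyltransferase of gangliosides, from 17.5 to 4.98 CPM (-1.82, adjusted p = 0.0316). None of the 4 overlapped between the genotypes, which held for 8.34% of all genes as higher and 8.87% as lower.

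In bulk libraries fewer cells of a type and less RNA per cell cannot be told apart. All 14 goblet cell markers passed the filter on low counts and Muc2 was the 1 that passed the test (7.14%, against 6.54% of all genes called lower), while 12 of the 14 were fitted lower, with a median log2 fold change of -0.33. They had a summed level of 12635 to 32020 CPM in Smad4 Vil-KO and 5047 to 14509 CPM in DDKO, where DDKO-5 was the highest of its group. The same library was the DDKO library nearest to, or inside, the Smad4 Vil-KO range in Gcnt4, B3gnt7, B4galnt3, St3gal3, St6galnac4, St6galnac6 and Fut2, while for Galnt6 and C1galt1c1 it was DDKO-1 and for B3gnt6 and St3gal1 it was DDKO-2. Of 10 colonocyte markers 1 fell, Slc37a2 (10%, against 6.54% of all genes called lower), 3 were fitted higher and 7 lower (median log2 fold change -0.27), and DESeq2 called 1 higher and 1 lower. Their sum was 9320 to 11230 and 6218 to 11476 CPM.

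Of 8 tested markers of small intestinal enterocytes, Sis, Fabp6, Treh, Mgam and Enpep rose (62.5%, against 6.76% of all genes called higher), and the summed level was 1104 to 1402 CPM in Smad4 Vil-KO and 1631 to 2750 CPM in DDKO, lowest in DDKO-5. No leukocyte or stromal and endothelial marker was called by edgeR's test or by DESeq2, of 10 and 7 tested. At an unadjusted p under 0.05 the count was 0 of the leukocyte markers and 3, all higher, of the stromal ones, with no share of all genes at that threshold to set beside it. Leukocyte markers summed to 57.3 to 151 CPM in Smad4 Vil-KO and 51.3 to 117 CPM in DDKO, and stromal and endothelial markers to 30.3 to 47.6 and 38.2 to 86.6 CPM, with Cdh5 at 0 in S-3 and S-4. The part of these cell types in the differences of the enzymes was not tested.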

How the data were processed

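The authors deposited whole-number counts per gene symbol, without normalization, for the 9 libraries. The submitters' processing notes name HISAT2 2.0 and the mm10 build. The counting program, its annotation and its use of strand are not given in the sources used here. No column of another sample was present (0 columns), and 27 symbols that a spreadsheet had turned into dates stayed in the library totals without a name. Libraries of 1 genotype differed beyond sampling noise in every pair and were counted as separate replicates. Libraries took their genotype and number from their labels.

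From the counts, genes were filtered with filterByExpr by genotype (14593 kept), normalized with TMM (factors 0.956 to 1.09) and tested over all 9 libraries, without covariates, with the quasi-likelihood test of edgeR 4.0.16 in R 4.3.3, two-sided, with Benjamini-Hochberg adjustment over all genes tested and a threshold of 0.05. Standard errors were derived from the fold change and the F statistic of the test. The biological coefficient of variation was 21.2%. The method was tested on simulated counts. Levels per kilobase used the exon union of each gene in GENCODE for GRCm38.

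All 38 members are named, and of the other lists the genes with an adjusted p under 0.05. Other genes named (Gm48597 and the like, and cell markers without a call) are given for overlap or level. The members, lists, ratios and alternatives were chosen with earlier results of these data known. Alternatives were DESeq2 1.42.0, limma-voom (limma 3.58.1), DESeq2 size factors or library size alone in edgeR, no filter or a minimum of 10 counts per library, omission of single libraries, blocking on the replicate number, a term for libraries with over 100 Y-linked counts, and the libraries without them. A fit without DDKO-1 and DDKO-2 was added after the data were seen. The alternatives share libraries and are not separate checks. The chi-square per gene compares the counts of a pair of libraries. Same-numbered libraries did not deviate together, so the block was not used in the main test. No protein sequence was used here.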

Additional observations from a re-analysis of the deposited data

Results flagged for a closer look

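In 5 of the 76 member and genotype combinations, 1 library stood apart from the rest of its group by Dixon's criterion (the gap to its neighbour over the range of the group). Chance alone gives about 1 such case in 20. In B3gnt7, DDKO-5 read 387.5 CPM against 123 to 185 CPM in the other DDKO libraries (gap over range 0.766). In Galnt5, an initiating transferase, DDKO-5 read 79.6 CPM against 53.1 to 60.5 CPM (0.718). In St6galnac6, S-2 read 869 CPM against 967 to 978 CPM in the other Smad4 Vil-KO libraries (0.897), and it was still above every DDKO library. In Galnt14 and St6galnac1 the criterion was met by S-1 at 0.128 and 0.257 CPM (2 and 4 counts) against 0 in S-2 to S-4 (gap over range 1 in both), which is within a few counts of the floor.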

How the results depend on the processing

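Gcnt4, B3gnt6 and St6galnac6 kept their direction and their call in all 18 alternatives, and the other 8 called members kept their direction but lost the call in 1 or more. Over the members' log2 fold changes, 509 alternative values kept direction and side of the threshold, 63 lost the call, 13 gained it and 26 changed sign, none of these 26 in a called member. With libraries left out in turn, 1 to 5 members were higher and 2 to 8 lower, and over all genes 455 to 1380 were higher and 392 to 1316 lower. In either direction that was 8.82% to 38.2% of the members and 5.69% to 18.6% of the genes tested. The same omissions gave 1 to 2 higher and 0 to 4 lower among the other glycosyltransferases and sulfotransferases (the transferase list), and 0 to 1 higher and 2 to 8 lower among the donor supply genes. DESeq2 called 13 of 36 members (36.1%), against 15.2% of the 19048 genes it tested, with 5 members and 1504 genes of all higher. It called 2 higher and 5 lower in the transferase list, where library size alone gave 2 higher. With a term for Y-linked counts 1 member was higher (Gcnt4), 653 genes of all were higher and 632 lower, 1 gene of the transferase list was lower, and 1 donor supply gene was higher and 2 lower. In the libraries without Y-linked counts 1524 genes of all were lower, 2 genes of the transferase list higher and 1 donor supply gene higher, the difference of the B3gnt6 to C1galt1 ratio was -1.70 (exact permutation p = 0.133, the smallest that 4 against 2 libraries allow) and that of Gcnt3 to Gcnt1 was 0.11. With each library left out the B3gnt6 to C1galt1 difference was -1.70 to -1.31, and that of St6galnac1 to C1galt1, at the floor, -0.25 to 0.97. Without both DDKO-1 and DDKO-2, the alternative added after the data were seen and not counted in the 18, 4 members were lower, 2 genes of the transferase list and 1 donor supply gene were higher, the B3gnt6 to C1galt1 difference was -1.56 (exact permutation p = 0.0571, the smallest that 4 against 3 libraries allow) and that of Gcnt3 to Gcnt1 was 0.12. The replicate block called 9 members (26.5%, against 11.1% of all genes tested), 8 of them among the 11 (Gal3st2 added, Galnt6, C1galt1c1 and St3gal1 lost). DDKO-5 has no same-numbered Smad4 Vil-KO library, so it added nothing to the genotype difference in that fit. Same-numbered libraries correlated at -0.096, -0.10, 0.020 and 0.088 in their deviations, so that the numbers give no pairing.

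Sign changes were in members that were not called. Galnt4 (-0.01) became 0.0019 with DESeq2 size factors, 0.019 with library size alone, 0.0039 with at least 10 counts, 0.18 with the Y-linked term and 0.19 without those libraries, and spanned -0.051 to 0.072 with libraries left out. C1galt1 became -0.012 without the filter and -0.0062 with the block (-0.072 to 0.073 with libraries left out), and Fut4 0.030 with library size alone and 0.0013 with at least 10 counts (-0.12 to 0.087). The Y-linked term and the libraries without such counts gave 0.18 and 0.18 for B4galnt2 and 0.065 and 0.069 for St6galnac2. Without DDKO-1 and DDKO-2, Galnt4 was at 0.19, B4galnt2 at 0.27, St6gal1 at 0.091 and St6galnac2 at 0.068. With libraries left out, B4galnt2 spanned -0.34 to 0.044, Galnt5 -0.20 to 0.022 and St3gal6 -0.28 to 0.079. The cause of these shifts was not tested. Depth limited Galnt14, B3gnt8, St6galnac1 and St6galnac3, whose differences were not detectable, and St3gal2, at 5 to 20 counts.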

Other observations

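Several members set DDKO-1 and DDKO-2 apart from the other 3 DDKO libraries, a pattern chosen after the values were seen and not tested. B4galnt2 read 240 and 369 CPM in these libraries against 773 to 931 CPM in DDKO-3 to DDKO-5, St6gal1 26.9 and 28.2 against 49.4 to 76.6 CPM, St6galnac2 40.9 and 43.0 against 61.2 to 63.3 CPM, and Galnt4 242 in both against 349 to 354 CPM. Gcnt1 went the other way, at 99.4 and 139 CPM against 46.1 to 53.4 CPM. Y-linked counts were held by DDKO-1, DDKO-2 and DDKO-5, and their part in these values was not tested. Over all genes the chi-square per gene was 18.6 between DDKO-1 and DDKO-2 and 42.1 to 63.1 between either of them and DDKO-3 to DDKO-5. Among goblet cell genes, Tff3, a secreted trefoil peptide, read 137 and 176 CPM in DDKO-1 and DDKO-2 against 347 to 414 CPM, and Clca1, a secreted mucus protein, 457 and 662 against 1383 to 6740 CPM. Muc2 did not follow this split, at 1672 and 2758 against 1701 to 2011 CPM. Tff3 and Clca1 were picked for this split from 14 goblet cell markers, and they do not describe the list as a whole.

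The share of the fucosylation step per kilobase taken by Fut2, against Fut4, was 56.7% to 70.7% in Smad4 Vil-KO and 41.8% to 59.2% in DDKO, so that the ranges overlapped. Gal3st2 took 10.02% to 14.6% of the sulfation step in Smad4 Vil-KO and 12.7% to 36.0% in DDKO.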
